A study of Mus musculus with 12 samples.

Results

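The genes described here encode enzymes of glycolysis and the subunits of lactate dehydrogenase: Gapdh, Pgk1, Pgam1, Eno1, Aldoa, Tpi1, Gpi1, Pkm, Ldha and Ldhb. They were taken by name, as all probe sets of a mouse Affymetrix array whose single symbol in the platform annotation was one of these names, together with the Affymetrix control probe sets for Gapdh. The genes were chosen by name with no limit on any value, but with the log2 intensities in the 4 groups and their differences already known, so every value and call below describes them and supports nothing. Of the 10 names, 8 had such a probe set, which gave 21 probe sets of 45101 on the array. Gapdh was covered by its 3 control probe sets alone, and 3 further probe sets that carry Gapdh beside other symbols were not used. The signal of Eno1 and Gpi1 was not analysed here, only the sequence upstream of their starts. Of the 21 probe sets, 16 passed the filter on low values (log2 intensity above 5, that is above 32 units, on at least 3 of the 12 arrays), and they covered 6 genes: Aldoa, Tpi1, Pgk1, Pgam1, Pkm and Ldhb. Of the 16, 1 Aldoa probe set passed through the double knockdown arrays alone, so it had to differ and its test is not reported. The only Ldha probe set did not pass, nor did 1 of 5 for Aldoa, and control probe sets were kept out of the main test.

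The series measured RNA in unfertilised eggs of CF1 mice, an outbred stock, arrested in meiosis II. Before maturation the full-grown oocytes had received control siRNA, a pool of siRNAs against Dcp1a, a pool against Dcp2, or both pools mixed. Dcp2 is the enzyme that removes the 5′ cap of mRNA, and Dcp1a is its cofactor. After injection the oocytes stayed in milrinone, which blocks the resumption of meiosis, for 20 h and then matured without it for 18 h. There were 4 groups with 3 independent replicate pools of 30 eggs each, and no uninjected eggs were among the samples used here. The groups are called control, Dcp1a knockdown, Dcp2 knockdown and double knockdown.

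Glycolysis splits glucose into pyruvate in the cytosol. Glucose phosphate isomerase (Gpi1) turns the phosphorylated glucose into fructose phosphate, aldolase (Aldoa) cuts the doubly phosphorylated sugar into triose phosphates, triose phosphate isomerase (Tpi1) interconverts these, and Gapdh, Pgk1, Pgam1, enolase (Eno1) and pyruvate kinase (Pkm) carry the triose to pyruvate. Lactate dehydrogenase, built of Ldha and Ldhb subunits, interconverts pyruvate and lactate. Fully grown mouse oocytes take up pyruvate, supplied in the follicle by the surrounding cumulus cells, as their main fuel and use little glucose themselves, and their lactate dehydrogenase is mostly of the Ldhb type. They are also transcriptionally quiescent, so the egg depends on mRNA stored during growth, and maturation brings the decay of a part of that store.

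The knockdowns and the cell type were checked on the same arrays. By its brightest probe set, Dcp1a signal was 5385 to 12427 units in control eggs and 518 to 1236 in all 6 pools given its siRNA. Probe set 1422131_at followed, at 36.6 to 46.9 units in control and 5.2 to 5.6 in those 6 pools. Probe set 1431933_a_at overlapped, at 3376.3, 277.9 and 25.9 units in control and 102.1 to 304.6 in the same pools. Dcp2 signal was 30.4 to 81.8 in control eggs and 4.9 to 5.0 in all 6 pools given its own siRNA. All 12 oocyte markers exceeded 32 units, with summed signals of 103173 to 140727 units in control, 139521 to 157882 after Dcp1a siRNA, 106716 to 137069 after Dcp2 siRNA and 153141 to 162188 after both. Of the 12, 2 were called higher and 0 lower in the double knockdown against control, beside 6.62% higher and 2.1% lower of all 11593 probe sets tested. The 2 were Zp2, by 2.08 on the log2 scale, and Zp3, by 2.14, both of the egg coat. Zp2 and Zp3 thus moved in the same comparison as the changes below, and their part in them was not tested. The check also found 2 of 21 cumulus and granulosa markers (Kitl and Nr5a2) above 32 units. The summed signal of those 21 ran from 1646 to 2252 units in control eggs, from 2465 to 2549 in the Dcp1a knockdown, from 1783 to 2706 in Dcp2 knockdown pools and from 1334 to 1597 after both pools of siRNA. Most of each sum was Nr5a2 alone. By its brightest probe set Nr5a2 read 1498.8 to 2130.7 units in control, 2324.2 to 2418.0 after Dcp1a siRNA, 1663.1 to 2579.7 after Dcp2 siRNA and 1202.6 to 1473.7 after both. The sums thus follow that 1 gene and do not measure the set. Fshr, Inha and Amhr2, which define granulosa cells, read 4.9 units on every array, the floor of the scale. Of 9 markers of other ovarian and blood cells, 1 (Kdr) exceeded 32 units, at 38.3 to 62.1 over all 12 arrays. Values are relative within an array, so an increase of 1 mRNA cannot be told apart from a loss of others, nor in such pools can less RNA per egg be told apart from fewer eggs with it. Control replicate 1 correlated better with the Dcp1a knockdown arrays (r of 0.978 to 0.988) than with the other control arrays (0.938 to 0.954). The same was true of Dcp2 knockdown replicate 2 (0.978 to 0.986 against 0.938 to 0.963), and their part in the results was not tested beyond leaving them out. The other control arrays also correlated with the Dcp1a knockdown about as well as with control. The ranges were 0.958 to 0.972 against 0.954 to 0.967 for control replicate 2, and 0.958 to 0.970 against 0.938 to 0.967 for control replicate 3.

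To show where hypoxia-related letters lie near members of differing signal, the sequence just upstream of a transcription start is printed for Aldoa and Pkm, which read highest in the double knockdown, for Ldhb and for Ldha, the member at the floor. Each run is the 250 bases before the most upstream start listed by RefSeq on GRCm38.p6, where Aldoa had 3 starts, Pkm and Ldha 2 each and Ldhb 1, and which start eggs use was not measured. It is written 5′ to 3′ on the gene's strand. Capitals mark the letters ACGTG, 1 form of the core of the element bound by hypoxia-inducible factors and part of the E-box CACGTG. The same letters on the opposite strand (CACGT) are also marked, with overlapping matches merged. The other form of that core, GCGTG, was not searched or counted, and it stands unmarked in the Ldhb window.
Aldoa, chr7:126800448-126800697, minus strand: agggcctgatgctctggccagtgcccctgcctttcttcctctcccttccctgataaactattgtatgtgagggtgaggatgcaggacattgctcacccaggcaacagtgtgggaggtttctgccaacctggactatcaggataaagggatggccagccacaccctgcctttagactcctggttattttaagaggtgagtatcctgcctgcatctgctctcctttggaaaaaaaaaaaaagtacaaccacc
Pkm, chr9:59656326-59656575, plus strand: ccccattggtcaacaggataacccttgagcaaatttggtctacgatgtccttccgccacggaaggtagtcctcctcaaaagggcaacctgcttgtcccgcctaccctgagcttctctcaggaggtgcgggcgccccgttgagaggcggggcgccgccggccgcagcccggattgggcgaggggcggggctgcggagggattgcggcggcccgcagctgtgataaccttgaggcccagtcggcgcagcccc
Ldhb, chr6:142507958-142508207, minus strand: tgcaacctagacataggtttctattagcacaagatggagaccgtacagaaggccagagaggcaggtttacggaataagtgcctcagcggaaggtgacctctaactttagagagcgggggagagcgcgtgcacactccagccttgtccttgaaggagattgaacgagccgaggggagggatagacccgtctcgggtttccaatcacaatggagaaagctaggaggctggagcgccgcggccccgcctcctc
Ldha, chr7:46845554-46845803, plus strand: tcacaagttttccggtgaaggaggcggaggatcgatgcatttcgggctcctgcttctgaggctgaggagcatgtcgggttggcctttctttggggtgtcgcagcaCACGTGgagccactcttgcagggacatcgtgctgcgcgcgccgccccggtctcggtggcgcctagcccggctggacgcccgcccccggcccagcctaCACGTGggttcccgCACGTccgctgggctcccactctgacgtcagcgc
The Ldha window held the motif at 5 places counted over both strands, in 3 separate stretches, and Pgk1 and Pgam1 held it at 2 and 1 places. The other 7 member windows did not hold these letters. That is 3 of 10 genes, beside 16.57% of the 32817 windows of the same length in the table. The letters describe the window and do not show a bound site. The windows held 0 CpG pairs for Aldoa, 21 for Pkm, 14 for Ldhb and 25 for Ldha, and the Aldoa count holds for that start alone.

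Aldoa was the member whose signal stood apart in the eggs that had received both siRNA pools. Its brightest probe set, 1447734_x_at, read 291.7, 269.3 and 295.6 units in the control pools. The Dcp1a knockdown pools read 262.3, 228.4 and 244.7, and the Dcp2 knockdown pools read 233.3, 256.9 and 329.7. In the double knockdown it read 441.6, 858.7 and 658.2, each above all 9 other arrays, with replicate 2 the highest and replicate 1 the lowest of the group. The double knockdown was higher than control by 1.14 ± 0.24 on the log2 scale (SE of the fit, adjusted p = 0.0133, limma with Benjamini-Hochberg adjustment over all 11593 probe sets tested). Each single knockdown overlapped with or lay just below control, with log2 differences of -0.22 ± 0.24 for Dcp1a (adjusted p = 0.868, limma) and -0.08 ± 0.24 for Dcp2 (adjusted p = 0.879, limma).

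**Figure D1:**
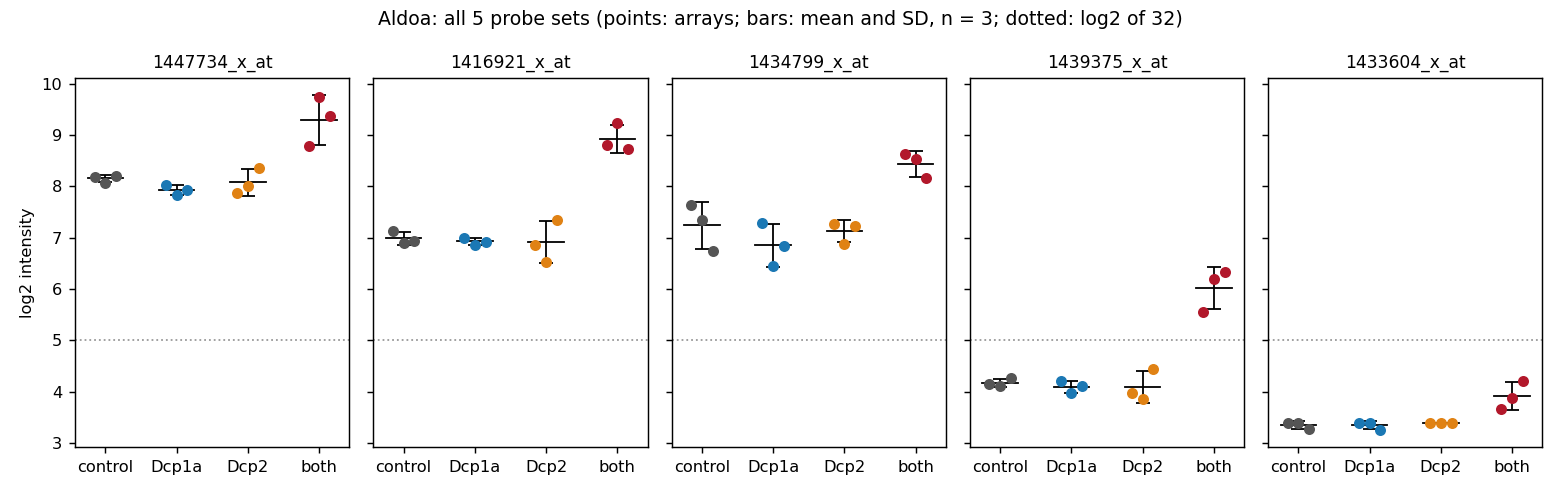
Signal of the 5 Aldoa probe sets on each array (log2 intensity, vertical axis), with 1 point per pool of 30 eggs, bars for the mean and SD of each group of 3, and a dotted line at log2 5, the filter on low values. In the 4 probe sets that reached the line, the double knockdown points lie above all other points, and the remaining probe set stays under the line on every array. Of the 4, 1439375_x_at reached the line in the double knockdown alone, so its order was fixed by the filter.

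Probe sets 1416921_x_at and 1434799_x_at gave the same order. Probe set 1416921_x_at read 140.9, 118.4 and 122.2 units in control, 128.2, 116.4 and 121.2 in the Dcp1a knockdown and 116.4, 92.4 and 162.7 in the Dcp2 knockdown. Its double knockdown values of 445.8, 604.6 and 425.2 were all more than those of any other array, a difference from control of 1.94 ± 0.22 (log2, adjusted p = 0.000499, limma). Probe set 1434799_x_at read 198.7, 161.8 and 107.4 in control, 155.9, 87.2 and 113.7 in the Dcp1a knockdown, 154.2, 117.3 and 149.5 in the Dcp2 knockdown, and 394.7, 373.1 and 284.9 when both were knocked down. Control replicate 1 was its highest value outside the double knockdown, and the log2 difference from control was 1.20 ± 0.28 (adjusted p = 0.0217, limma). Probe set 1439375_x_at was dim, at 17.3 to 19.2 units in control and 14.4 to 21.7 in the single knockdowns, and read 46.7, 72.8 and 80.0 in the double knockdown. It passed the filter through these 3 arrays alone, so it had to read highest there, and no fold or test of it is given. The last probe set, 1433604_x_at, stayed between 9.5 and 18.4 units on all arrays and was not tested, although its double knockdown values of 12.6, 14.7 and 18.4 were its highest. All 5 carry the suffix _x_at, by which the manufacturer marks probe sets with probes that can match other transcripts, so signal from Aldoa-like sequences cannot be told apart from Aldoa, and the 5 are not independent of each other.

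The 3 Aldoa probe sets that exceeded 32 units in more than 1 group also passed against each single knockdown. For 1447734_x_at the double knockdown was higher by 1.36 ± 0.24 than the Dcp1a knockdown (log2, adjusted p = 0.0037, limma) and by 1.22 ± 0.24 than the Dcp2 knockdown (adjusted p = 0.00939, limma). The design also allows the change with both siRNA pools to be set against the sum of the changes with each alone, the interaction. Aldoa exceeded that sum by 1.44 ± 0.33 on the log2 scale (adjusted p = 0.0357, limma), 1416921_x_at by 2.07 and 1434799_x_at by 1.71. The call for 1447734_x_at against control was lost without control replicate 2 (log2 difference 1.10, adjusted p = 0.0558, limma) and without double knockdown replicate 2 (0.92, adjusted p = 0.068, limma). Over its 24 alternative settings the difference stayed between 0.92 and 1.40, with adjusted p from 0.011 to 0.096 (limma). The interaction of 1447734_x_at lost its call in 16 of 23 settings, with a highest adjusted p of 0.156 (limma), among them without any 1 array other than Dcp2 knockdown replicate 3 and double knockdown replicate 1. Against the Dcp2 knockdown the call was lost with median centring (adjusted p = 0.054, limma) and in 2 further settings.

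Pkm, pyruvate kinase, which makes pyruvate and ATP in the last step, was dim in all groups and highest in the double knockdown. Its probe set 1417308_at read 48.7, 28.6 and 47.4 units in control, 38.3, 29.0 and 28.0 in the Dcp1a knockdown and 39.9, 37.4 and 24.1 in the Dcp2 knockdown. The double knockdown values were 74.3, 66.1 and 73.5, a narrow range with no overlap with any other group, whose arrays lay on both sides of 32 units. Pkm was at least 2.10-fold higher than in the Dcp1a knockdown (adjusted p = 0.0139, limma) and higher by 1.11 ± 0.26 on the log2 scale than in the Dcp2 knockdown (adjusted p = 0.0266, limma). Against control the difference was 0.82 ± 0.26 and did not pass (adjusted p = 0.0779, limma), nor did the interaction (1.47 ± 0.37, adjusted p = 0.0518, limma). Without control replicate 1 the difference from control passed (0.95, adjusted p = 0.0392, limma), and without control replicate 2 the interaction did (1.72, adjusted p = 0.0161, limma). The call against the Dcp1a knockdown was lost without Dcp1a knockdown replicate 2 or 3 or double knockdown replicate 1, where adjusted p was 0.0601 to 0.066 (limma). The call against the Dcp2 knockdown was lost in 9 of 23 alternative settings, among them median centring of the arrays (0.90, adjusted p = 0.0507, limma), and without Dcp2 knockdown replicate 3 (0.88, adjusted p = 0.093, limma) or any 1 double knockdown array (adjusted p = 0.0814 to 0.111, limma).

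**Figure D2:**
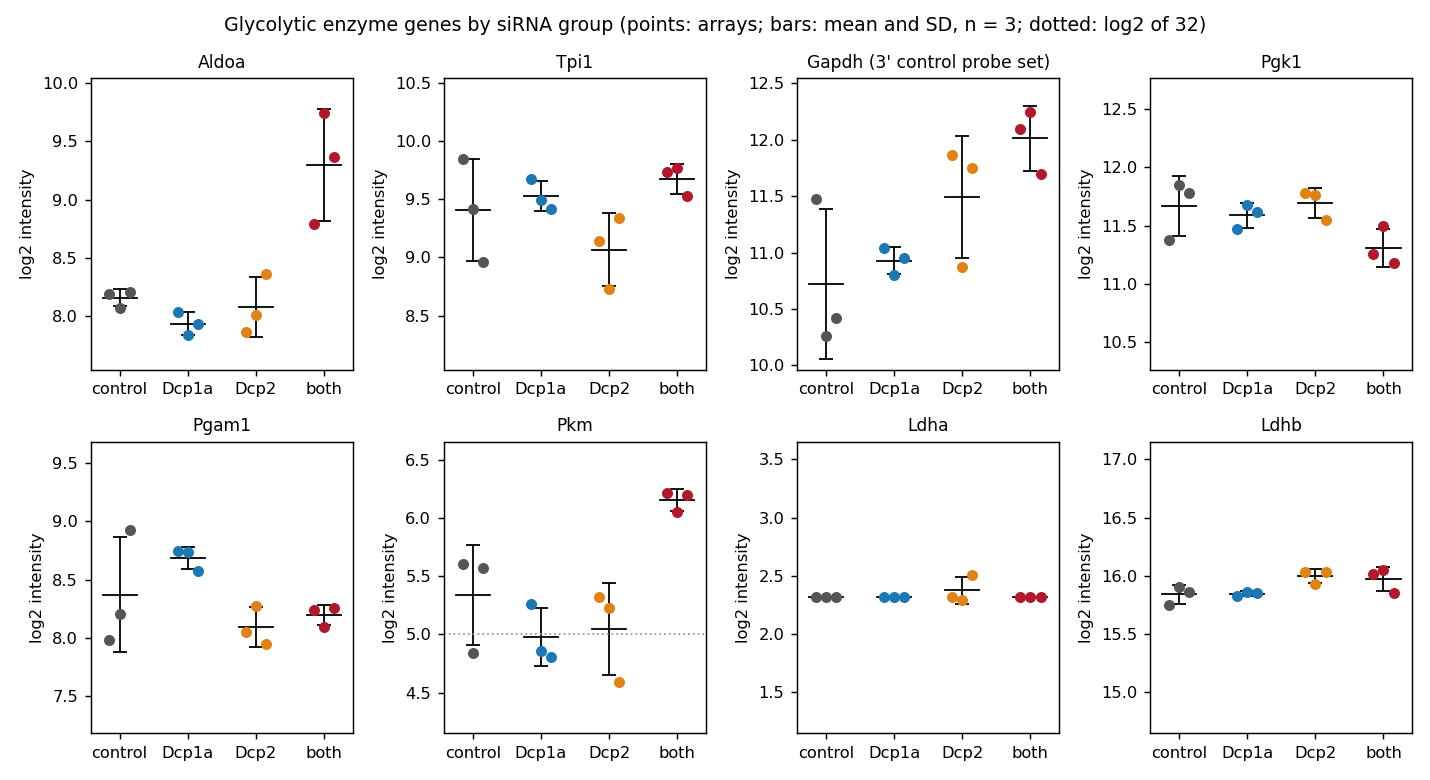
Log2 intensity of the 8 members with a probe set, by group (horizontal axis, siRNA received), each by its brightest probe set, with Gapdh by its 3′ control probe set. Points are pools of 30 eggs and bars the mean and SD of 3. Each panel has its own vertical axis, so levels are not compared between genes, and the double knockdown points (both) lie above all others for Aldoa and Pkm, while Ldha stays at the floor in every group.

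Gapdh, which oxidises glyceraldehyde 3-phosphate, was read by 3 control probe sets, placed at the 3′ end, the middle and the 5′ end of the mRNA to check its integrity. The 3′ probe set read 2854.3, 1226.6 and 1370.7 units in control and 2104.2, 1781.2 and 1979.2 in the Dcp1a knockdown. It read 3730.9, 1875.3 and 3433.9 in the Dcp2 knockdown, and 4376.6, 4856.6 and 3313.5 when both were knocked down. Control replicate 1 was more than double the other control values, and the double knockdown pools overlapped with the Dcp2 knockdown but not with control. In a fit with the control probe sets added after the values had been seen, Gapdh was higher in the double knockdown than in control by 1.29 ± 0.34 (log2, adjusted p = 0.0408, limma). That call was lost in 8 of 16 alternative settings, among them without control replicate 2 (1.06, adjusted p = 0.166, limma), control replicate 3 (1.14, adjusted p = 0.107), double knockdown replicate 1 (adjusted p = 0.139) or replicate 2 (1.17, adjusted p = 0.168), without any 1 Dcp1a knockdown array (adjusted p = 0.0641 to 0.0653), and with median centring (1.26, adjusted p = 0.0529). Without control replicate 1 the difference was 1.67 (adjusted p = 0.00493, limma).

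Gapdh after Dcp2 siRNA alone stood between these groups, 0.77 ± 0.34 above control on the log2 scale (adjusted p = 0.425, limma), and the interaction was 0.31 ± 0.49 (adjusted p = 0.951, limma). The middle probe set followed a like order, at 185.1, 43.6 and 53.2 units in control, 104.3, 93.3 and 110.4 in the Dcp1a knockdown, 194.5, 84.3 and 151.1 in the Dcp2 knockdown, and 220.5, 252.8 and 201.6 when both were knocked down. Its difference between double knockdown and control was 1.57 ± 0.47 (log2, adjusted p = 0.0659, limma). Control replicate 1 stood apart here too. The 3′ control probe set for Actb, the cytoskeletal actin, read 1196.6, 388.1 and 458.9 units in control and 887.9, 980.0 and 960.4 in the double knockdown, where the difference of 0.66 ± 0.43 did not pass (adjusted p = 0.316, limma). So the control array that was high for Gapdh was also the high control array for Actb.

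The 5′ Gapdh probe set read 7.8 to 31.7 units on all 12 arrays, under the level of 32 units, so the comparison of 3′ with 5′ signal rests on values near the floor. The log2 difference between the 3′ and 5′ signals exceeded that of control by 0.36 in the Dcp1a knockdown, 0.64 in the Dcp2 knockdown, and 0.21 when both were knocked down. Exact two-sided permutation tests gave p of 0.4, 0.2 and 0.8 (0.6, 0.6 and 0.8 after adjustment over the 3 comparisons), where 3 arrays against 3 allow no p under 0.1. With the middle probe set in place of the 5′ one the differences were -0.23, -0.07 and -0.28 (exact permutation p of 0.4, 0.9 and 0.4).

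**Figure D3:**
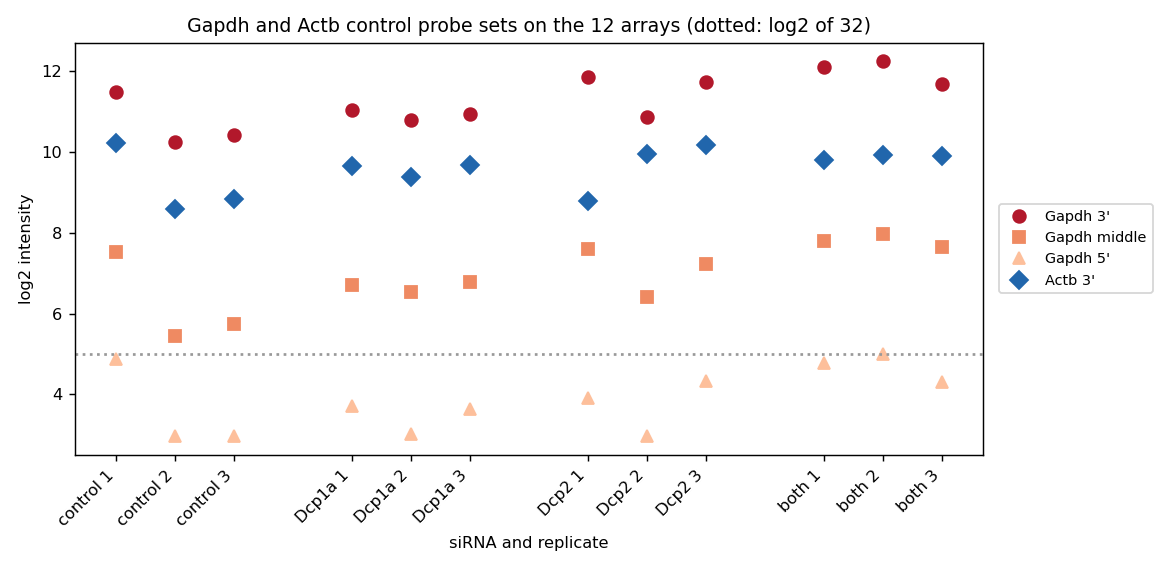
Log2 intensity of the Gapdh control probe sets at the 3′ end, the middle and the 5′ end of the mRNA, and of the 3′ Actb control probe set, on each of the 12 arrays (horizontal axis), with a dotted line at log2 5. Control replicate 1 sits above the other control pools for all 4 probe sets, Dcp2 knockdown replicate 1 is high for Gapdh and low for Actb, and the 5′ Gapdh probe set stays under the line.

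Tpi1, Pgk1 and Pgam1, which act between aldolase and pyruvate kinase, did not pass in any comparison. Tpi1 by its brightest probe set, 1435659_a_at, read 920.6, 681.2 and 499.5 units in control, 814.9, 722.7 and 684.4 in the Dcp1a knockdown, 563.4, 424.0 and 647.1 in the Dcp2 knockdown, and 853.7, 869.7 and 739.3 when both were knocked down. Control alone spanned nearly the whole range of the other groups. The double knockdown minus control difference was 0.27 ± 0.24 (log2, adjusted p = 0.458, limma), and 0.02 and 0.52 for the other Tpi1 probe sets.

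Pgk1, which makes the first ATP of the pathway, had its lowest group mean in the double knockdown by its brightest probe set. That probe set, 1438640_x_at, read 2653.9, 3694.0 and 3510.0 units in control, 2830.2, 3274.1 and 3144.3 in the Dcp1a knockdown, 3509.7, 3477.0 and 2992.4 in the Dcp2 knockdown, and 2441.6, 2880.1 and 2312.5 when both were knocked down. The lowest control value lay within the double knockdown, and the difference of -0.36 ± 0.18 did not pass (log2, adjusted p = 0.21, limma). The other Pgk1 probe sets gave -0.36 (adjusted p = 0.275) and -0.29 (adjusted p = 0.283, limma), and in the first of these, 1417864_at, the Dcp2 knockdown mean of 152 units was below the double knockdown mean of 164.

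Pgam1, the mutase that follows Pgk1, had its highest single value in control replicate 3. It read 252.8, 294.3 and 485.4 units in control, 428.6, 426.3 and 380.7 in the Dcp1a knockdown, 265.6, 310.1 and 246.0 in the Dcp2 knockdown, and 301.1, 273.0 and 305.4 when both were knocked down. All Dcp1a knockdown pools exceeded those of the double and Dcp2 knockdowns, yet against control the Dcp1a knockdown differed by 0.32 ± 0.23 (log2, adjusted p = 0.853, limma) and the double knockdown by -0.17 ± 0.23 (adjusted p = 0.625, limma).

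Of the lactate dehydrogenase subunits, Ldha was read at the floor of the scale and Ldhb far above it. The Ldha probe set, 1419737_a_at, read 4.9 to 5.7 units on all 12 arrays, so it was not above the floor in any group and no fold is given. Ldhb read 55187.7, 61355.8 and 59620.9 units in control by probe set 1434499_a_at, and 58086.4, 59506.1 and 59305.4 in the Dcp1a knockdown. It read 67223.2, 62502.4 and 66860.2 in the Dcp2 knockdown, and 66312.5, 67847.0 and 59341.3 when both were knocked down. The double knockdown overlapped with control, from which it differed by 0.13 ± 0.14 (log2, adjusted p = 0.534, limma), while all Dcp2 knockdown pools lay above all control and Dcp1a knockdown pools (0.16 ± 0.14 against control, adjusted p = 0.558, limma). This probe set lay near the top of the scale, with 6 of 45101 probe sets brighter in the mean, and whether it was saturated was not tested. The other 3 Ldhb probe sets gave 0.30 to 0.41 for the same comparison, with no overlap of the 2 groups, and did not pass (adjusted p = 0.12 to 0.204, limma). In those 3, every pool of the single knockdowns also read above every control pool, and none of these differences passed. How many of all probe sets separate the groups in this way was not counted. The 3 Ldhb probe sets may share probes, so they are not 3 independent readings.

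Counted by its brightest probe set, 1 of 6 tested members (Aldoa) was higher in double knockdown eggs than in control eggs and 0 were lower, beside 8.72% of all 11593 probe sets called in either direction (limma, adjusted p under 0.05). Called higher were 6.62% of all, and called lower 2.1%. That background of 1011 probe sets was 304 to 2450 with 1 array left out. The median member change was 0.20 on the log2 scale, against -0.02 for all probe sets tested. Without control replicate 2, or without double knockdown replicate 2, 0 members were called, and without control replicate 1 there were 2.

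In the Dcp1a knockdown 0 of 6 members passed, beside 0.0518% of all probe sets (0.0173% higher and 0.0345% lower, 6 probe sets). In the Dcp2 knockdown 0 of 6 passed, beside 0.0173% (0% higher and 0.0173% lower, 2 probe sets). These backgrounds rest on single arrays: without control replicate 1, 371 probe sets were called in the Dcp1a knockdown and 223 in the Dcp2 knockdown, while 0 members were called in either. At an unadjusted p under 0.05 the limma fit gave 0 members in both. Of all 11593 probe sets tested, 570 were under it in the Dcp1a knockdown and 1283 in the Dcp2 knockdown. No other tool was run. The median member changes were -0.04 and -0.18, against 0.09 and -0.11 for all probe sets. Against the Dcp1a knockdown, the double knockdown had 2 of 6 members higher (Aldoa and Pkm), beside 12.1% of all probe sets called (8.27% higher and 3.79% lower, 1398 probe sets). That background was 534 to 2159 probe sets with 1 array left out, and turned from 959 higher and 439 lower to 893 higher and 1250 lower without double knockdown replicate 3 and to 1066 and 1093 without Dcp2 knockdown replicate 2. Against the Dcp2 knockdown it had the same 2, beside 6.37% (6.12% higher and 0.25% lower, 739 probe sets, or 333 to 852 with 1 array left out). For the interaction the count was 1 of 6 (Aldoa), beside 3.93% (3.9% higher and 0.0345% lower, 456 probe sets, or 131 to 629). These comparisons share arrays, so the counts are not independent of each other.

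**Figure D4:**
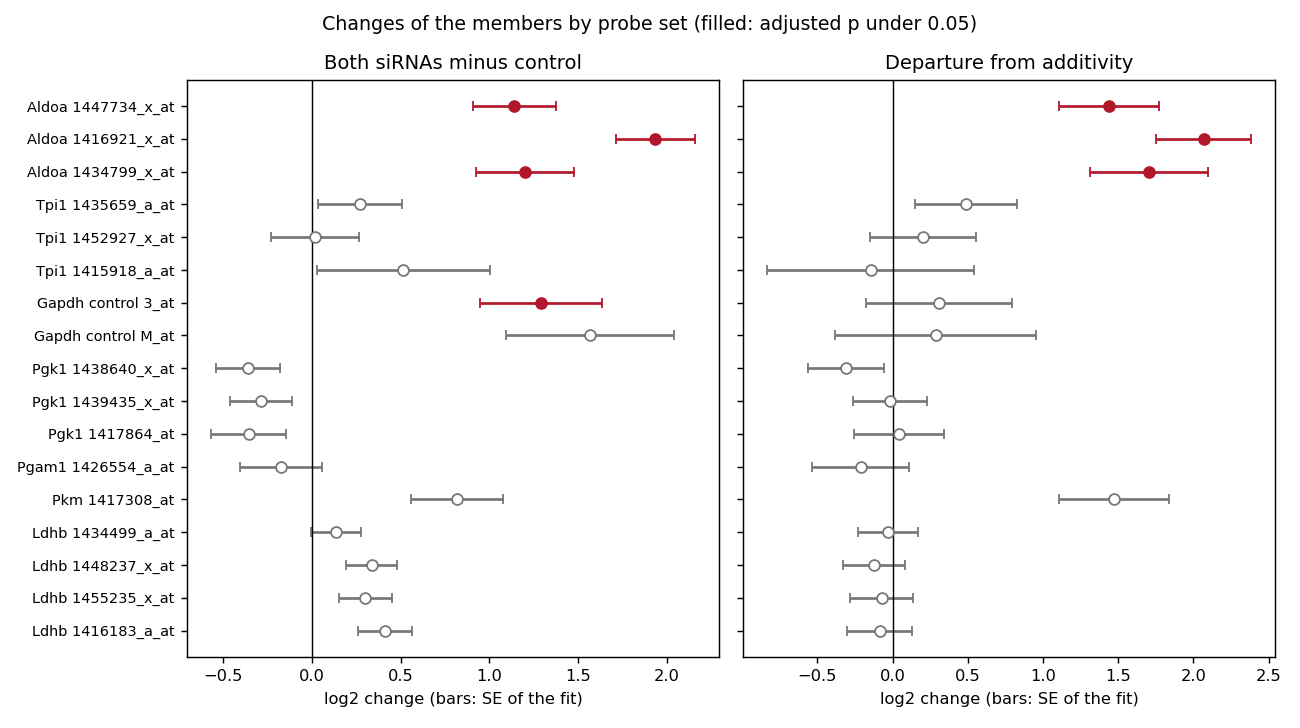
Log2 difference between double knockdown and control (left) and the interaction (right) for the tested probe sets of the members, without the Aldoa probe set that passed the filter through the double knockdown alone, with standard errors of the limma fit. The Gapdh control probe sets come from the fit with control probe sets added, and filled points passed at an adjusted p under 0.05. On the left the filled points are 3 Aldoa probe sets and the 3′ Gapdh probe set, and on the right the 3 Aldoa probe sets alone.

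Across the 12 arrays the members did not move as 1 group. The correlation of log2 values was 0.74 between Aldoa and Pkm, -0.69 between Pgk1 and Tpi1, and -0.63 between Pgk1 and Aldoa. These are descriptions over arrays that share their groups. The genes whose values were most like the mean member profile, among 6784 genes, were Emg1 (r = 0.97), a ribosome biogenesis methyltransferase, Kdm2b (0.96), a histone demethylase, Yif1a (0.95), which exceeded 32 units in the double knockdown alone, Cox4i1 (0.95) and Ndufa9 (0.95), the last 2 being subunits of mitochondrial respiratory complexes. Ldhb was matched best by Ampd2 (0.97), Cox7a2 (0.91) and Bcar1 (0.91).

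Of 67 other genes of glucose handling, 62 had a probe set and 24 were tested. In the double knockdown against control 1 was higher and 1 lower. Among the hexokinases, phosphofructokinases and their regulators, which set the entry of glucose into the pathway, 4 of 14 genes were tested and 0 were called in any comparison. At an unadjusted p under 0.05, 1 of the 4 (Pfkl) stood in the double knockdown comparison, beside 3228 of all 11593 probe sets tested (limma). Pfkl, the liver-type phosphofructokinase, read 121.7, 49.7 and 64.3 units in control and 128.8, 155.2 and 129.1 in the double knockdown (log2 difference 0.91 ± 0.31, adjusted p = 0.0899, limma). Hk2, a hexokinase, differed by -0.34 ± 0.21 (adjusted p = 0.306, limma).

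Of the 3 tested genes in the list of other isozymes of the same steps, Galm, an aldose 1-epimerase that is not itself an isozyme of a member, was called. It read 221.4, 176.7 and 402.7 units in control, 278.9, 205.1 and 158.4 in the Dcp1a knockdown, 195.6, 321.3 and 260.1 in the Dcp2 knockdown, and 681.0, 698.3 and 565.5 when both were knocked down. All double knockdown pools exceeded all others, with a difference from control of 1.36 ± 0.32 (log2, adjusted p = 0.0233, limma). The call was lost without control replicate 2 (1.11, adjusted p = 0.105, limma), double knockdown replicate 1 (adjusted p = 0.0927) or double knockdown replicate 2 (adjusted p = 0.105). A further tested Galm probe set did not follow, at 114.9, 37.5 and 29.6 units in control and 82.8, 52.2 and 21.3 in the double knockdown. Bpgm, the bisphosphoglycerate mutase, differed by 0.12 ± 0.15 (adjusted p = 0.586, limma).

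None of the 4 tested sugar and monocarboxylate carriers was called by its brightest probe set in any comparison. In the double knockdown against control 1 of 4 was at an unadjusted p under 0.05, beside 3228 of all 11593 probe sets (limma). Slc2a1, the main glucose carrier of many cells, read 2161.2, 2253.0 and 1052.2 units in control and 3214.8, 3328.3 and 2496.9 in the double knockdown by 1434773_a_at. There the groups did not overlap (0.79 ± 0.28, log2, adjusted p = 0.0992, limma). They did overlap in a dimmer Slc2a1 probe set, 1426600_at, at 80.0, 26.6 and 26.2 units in control and 73.2, 68.1 and 69.0 in the double knockdown. Slc2a10 differed by 0.16 ± 0.15 (adjusted p = 0.47, limma). Another Slc2a10 probe set, 1419434_at, named after its values were seen, gave 0.64 ± 0.17 (adjusted p = 0.0448, limma).

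In the pentose phosphate pathway, which makes NADPH and ribose from glucose 6-phosphate, 7 of 13 genes were tested. In the double knockdown against control 0 passed, and 3 were at an unadjusted p under 0.05 (limma). Of all 11593 probe sets tested, 3228 were under it in that comparison. Rpia, ribose-5-phosphate isomerase, read 731.7 to 1004.7 units in control and at most 576.6 in the double knockdown (-1.12 ± 0.34, log2, adjusted p = 0.0665, limma). Rpe, the epimerase beside it, differed by -0.84 ± 0.28 (adjusted p = 0.0895, limma) and fell against the Dcp1a knockdown by 1.09 on the log2 scale (adjusted p = 0.0292, limma). Tkt, transketolase, read 130.6, 174.3 and 847.4 units in control, 122.3, 123.7 and 163.9 in the Dcp1a knockdown, 205.5, 103.4 and 59.7 in the Dcp2 knockdown, and 853.1, 682.3 and 829.3 when both were knocked down. Control replicate 3 thus lay among the double knockdown pools and apart from the other control pools. Tkt was higher in the double knockdown than in the Dcp1a knockdown by 2.54 ± 0.62 and than in the Dcp2 knockdown by 2.86 ± 0.62 (log2, adjusted p = 0.0225 and 0.0179, limma), but not past the threshold against control (1.55 ± 0.62, adjusted p = 0.142, limma). The call for Rpe was lost with median centring (adjusted p = 0.0572), quantile normalization (0.0545), cyclic loess (0.0724) and no filter (0.137), and those for Tkt with no filter (0.163 and 0.149, limma). With arrays left out, calls were lost without any 1 Dcp1a knockdown array or double knockdown replicate 2 for both genes against the Dcp1a knockdown, also without double knockdown replicate 1 for Tkt (adjusted p = 0.0601 to 0.0827, limma) and replicate 3 for Rpe (0.0549 to 0.111), and without Dcp2 knockdown replicate 2 or 3 or any 1 double knockdown array for Tkt against the Dcp2 knockdown (0.0535 to 0.0844).

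Of 6 tested regulators of glycolytic gene expression, Egln1, the prolyl hydroxylase that marks hypoxia-inducible factors for degradation, was called lower in the double knockdown. It read 2449.8, 2601.1 and 2582.6 units in control, 2448.8, 2599.2 and 2738.2 in the Dcp1a knockdown, 1640.1, 1364.4 and 1702.1 in the Dcp2 knockdown, and 1740.9, 1650.6 and 1642.5 when both were knocked down. In this probe set, 1423785_at, both groups that received Dcp2 siRNA lay below both that did not. A dimmer tested probe set, 1451110_at, did not follow, at 1271.8, 242.4 and 435.2 units in control and 787.8, 920.5 and 833.2 with both siRNAs, a log2 difference of 0.72 ± 0.47 that did not pass (adjusted p = 0.317, limma). For 1423785_at the difference from control was -0.60 ± 0.15 in the double knockdown (log2, adjusted p = 0.0297, limma) and -0.70 ± 0.15 in the Dcp2 knockdown, where it did not pass (adjusted p = 0.308, limma). The call in the double knockdown was lost in 13 of 24 alternative settings, where adjusted p was 0.0501 to 0.13 (limma), among them without any 1 control array other than replicate 1, any 1 Dcp1a knockdown array and any 1 double knockdown array. Arnt, the partner of the hypoxia-inducible factors, differed by 0.56 ± 0.29 (adjusted p = 0.228, limma). Hif1a, the oxygen-regulated factor itself, differed by -0.40 ± 0.23 by its brightest probe set (adjusted p = 0.261, limma), while a dimmer one, 1448183_a_at, named after its values were seen, gave -1.02 ± 0.21 (adjusted p = 0.0138, limma).

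**Figure D5:**
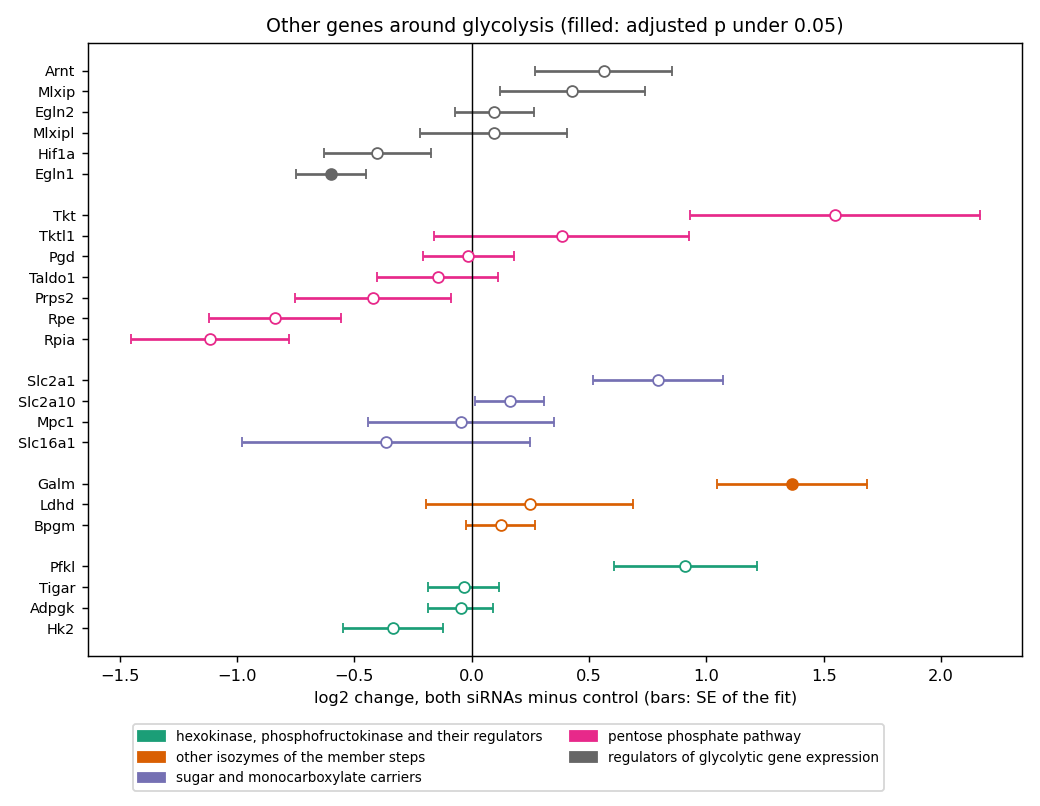
Log2 change in the double knockdown against control for each of the 24 tested genes outside the members, with standard errors of the limma fit and colours for the gene lists. Filled points passed at an adjusted p under 0.05, which were Galm at 1.36 and Egln1 at -0.60.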

How the data were processed

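RNA of 12 pools of 30 eggs was isolated with a Pico-Pure kit, amplified and biotin-labelled by the Affymetrix small-sample protocol, per the labels' protocols. The authors computed the deposited intensity values with GCRMA, per the submitters' processing notes. They are linear, with a minimum of 4.9. Its version and settings are not given in the sources used here. This method pulls dim signals to a floor and normalizes between arrays, so folds of dim probe sets are understated or unstable and values are relative. A value of 5 units or less made up 55.58% of the table. No read depth applies, and the number of arrays limits precision.

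Values were taken to log2. Probe sets that were not controls and had log2 above 5 on at least 3 of 12 arrays were tested (11593), in R 4.3.3 with limma 3.58.1, using lmFit and eBayes with no trend and 8 residual degrees of freedom, two-sided, with Benjamini-Hochberg adjustment over all of them and a threshold of 0.05. A gene was counted by its tested probe set with the highest mean. Where the dimmer group had a mean or median log2 at or under 5, the fold is a bound against 32 units. Such a bound allows for the floor but not for replicate spread. All members were described, and of each other list the called genes or, with fewer than 2 called, those with the smallest p up to 2. The members, lists and alternatives were chosen with earlier results of these data known. Fits with control probe sets added, with the settings tried on Gapdh, and without both divergent arrays were chosen after the values were seen. The procedure was tested on 12 simulated arrays in 4 groups (11593 probe sets). All groups had the control mean and independent normal noise, and changes were added to the double knockdown alone. For the double knockdown against control it found 32 of 100 true 2-fold and 77 of 100 true 4-fold changes and made 10 false calls. Arrays that diverge as a whole were not simulated, so these numbers need not hold for the real arrays. Upstream sequences are RefSeq's (GRCm38.p6), where all 10 genes matched by symbol. Figures were drawn with matplotlib 3.10.9, and the exact tests used scipy 1.17.1.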

Additional observations from a re-analysis of the deposited data

Results flagged for a closer look

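In 3 Aldoa probe sets the effect of Dcp2 siRNA differed between eggs with and without Dcp1a siRNA, by the interaction term of the limma fit. The difference was 2.07 for 1416921_x_at, 1.71 for 1434799_x_at and 1.44 for 1447734_x_at, all on the log2 scale. The 3 are not independent of each other. The call for 1447734_x_at was lost in 16 of 23 alternative settings (highest adjusted p = 0.156, limma). In at least 1 of those settings, at most 1 of the 3 Aldoa probe sets was called. Tkt, transketolase of the pentose phosphate pathway, was picked out by the same interaction term, at 3.84 on the log2 scale by 1439443_x_at (adjusted p = 0.033, limma). That call for Tkt was lost in 10 of 23 alternative settings, 8 of them leaving out 1 knockdown array (adjusted p = 0.071 to 0.108, limma). For Tkt, control replicate 3 read 847.4 units against 130.6 and 174.3 in the other control pools, and without that array the interaction was 3.01 (adjusted p = 0.015, limma).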

How the results depend on the processing

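No member or pathway gene reversed its direction while called, but the balance of all probe sets called against the Dcp1a knockdown did, from 959 higher and 439 lower to 893 and 1250 without double knockdown replicate 3, to 1066 and 1093 without Dcp2 knockdown replicate 2, and to 1283 and 1381 without the latter and control replicate 1. For the double knockdown against control, 1 member was called. The count was 0 without a filter on low values and 0 with variance from the compared groups alone, 2 with values under 32 set to 32, 2 with control probe sets added, 2 without control replicate 1 and Dcp2 knockdown replicate 2 together, and 0 to 2 with 1 array left out. The 2 other pathway genes became 1 without a filter, 0 with the compared groups' variance, 0 with the replicate block, 4 by any probe set, 6 without both arrays, and 0 to 5 with 1 array left out. For the single knockdowns, 0 pathway genes became 1 without both arrays, and 0 to 1 with 1 array left out for Dcp1a. Against the Dcp1a knockdown, the 2 members became 1 without a filter, 1 with log2 above 7, 3 with the compared groups' variance (Pgam1 lower, adjusted p = 0.0335, limma), and 1 to 2 with 1 array left out, and the 4 pathway genes became 2 with median centring or quantile normalization, 1 without a filter, 6 with the compared groups' variance and 1 to 5 with 1 array left out. Against the Dcp2 knockdown, the 2 members became 0 with median centring, without a filter or with the compared groups' variance, 1 with quantile, cyclic loess or log2 above 7, and 1 to 2 with 1 array left out. The 2 pathway genes became 1 with median centring, quantile or the replicate block, 0 without a filter, 3 without both arrays and 0 to 2 with 1 array left out. For the interaction, the 1 member became 0 with quantile, cyclic loess, no filter, the replicate block or without both arrays, 2 with values under 32 set to 32, and 0 to 1 with 1 array left out. The 1 pathway gene became 0 without a filter or with the replicate block, and 0 to 2 with 1 array left out. With the middle Gapdh probe set in place of the 5′ one, the differences were -0.23, -0.068 and -0.28. Without a filter more probe sets are adjusted for, and fewer arrays leave fewer degrees of freedom. The causes of the other shifts were not tested.

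The replicate numbers did not pair the samples: same-numbered arrays had correlations of deviations from -0.69 to 0.39, and 3 of 12 arrays matched their own number best. Of all probe sets, 1011 were called in the double knockdown against control (768 higher, 243 lower), with 527 called without a filter and 304 to 2450 with 1 array left out. The higher and lower calls were 699 and 364 with median centring and 726 and 361 with quantile normalization. Signals near the floor limit Ldha, Pkm, the 5′ Gapdh probe set and the dimmest Aldoa probe sets, and Ldhb lies near the top of the scale.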

Other observations

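Of 9640 probe sets above 32 units on all 12 arrays, 766 (7.95%) carried exactly 1 value on 3 or more arrays. Among the members, Pgk1 by 1439435_x_at read 601.0 on 3 arrays (control replicate 1 and double knockdown replicates 1 and 3) and 610.5 on 2.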
